A study of Bos taurus with 6 samples.

Results

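NMRK2, the nicotinamide riboside kinase of striated muscle, was examined beside other genes that make or use nicotinamide adenine dinucleotide (NAD) in the back muscle of cattle. The members were NMRK2, NAMPT, NNMT, NADSYN1, NMNAT1, NAPRT1, SIRT1 and SIRT3, taken as every probe set of the array whose annotation gives exactly 1 of these symbols. NAPRT1 is listed under its current symbol NAPRT. NNMT had no probe set named for it in the annotation, so 7 of the 8 genes were measured, with 11 of 24016 probe sets, among 9155 named genes in all. NMRK2 was selected on its breed difference in these same arrays, so that difference is given as a description, without a test. The other members were added for their role in NAD metabolism.

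The series measured RNA from the musculus longissimus dorsi, a long back muscle, of 3 Japanese Black steers and 3 Holstein steers, with 1 Affymetrix array per animal. The Japanese Black is bred for beef and is noted for marbled meat, whereas the Holstein is a dairy breed. All 6 steers, which are castrated males, had received energy-rich feed, so the arrays compare breeds under that feed and not feeds. Whole muscle was sampled, and fewer cells of a type cannot be told apart from less RNA per cell.

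NAD carries electrons between the enzymes of energy metabolism and is consumed by sirtuins, ADP-ribosyltransferases and related enzymes, which release nicotinamide. Cells rebuild it from nicotinamide through NAMPT, from nicotinamide riboside through the kinases NMRK1 and NMRK2, from nicotinic acid through NAPRT and NADSYN1, or from tryptophan. In mammals the NAMPT route supplies most NAD of skeletal muscle, and NMRK2 is a kinase found mainly in skeletal muscle and heart.

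The muscle fibre markers were brighter than every marker of the other lists examined. The 9 annotated muscle fibre markers had mean signals between 7564 intensity units (ACTN2) and 15568 (TNNI2). The summed signal of these markers was 111420.3 to 116890.7 in Japanese Black and 116543.4 to 118147.4 in Holstein, so the breeds overlapped by a narrow margin. Leukocyte and macrophage markers were dim, with mean signals of 17.7 to 134. Other lists held bright genes. Mean signals ran from 46.7 (FAP) to 4157 (DCN) for fibroblast markers and from 101 (CIDEA) to 3757 (FABP4) for adipocyte markers. For erythrocyte markers they ran from 2.33 (SLC4A1) to 3756 (GYPC). Of these GYPC alone was bright, and the haemoglobin gene HBB averaged 53.6 in Japanese Black and 87.7 in Holstein. Liver markers, which muscle should lack, had mean signals between 22.3 (F2) and 537 (ALB), none of them at 0. Adipocyte markers differed widely between animals, with summed signals of 2872 to 13043 in Japanese Black and 1947 to 10164 in Holstein. The median signal per array was 48.5 to 54.7, and Japanese Black 3 had the highest upper quartile, at 205 against 172 to 181 in the other arrays.

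NMRK2, which phosphorylates nicotinamide riboside to nicotinamide mononucleotide, gave a bright signal in every animal. It read 4484, 4437 and 3989 in Japanese Black 1, 2 and 3, against 6297, 6941 and 8968 in Holstein 1, 2 and 3. Every Japanese Black animal was below every Holstein animal, as was the case at 8.84% of all 18012 probe sets bright enough to be tested. The lowest Holstein signal was 1.40 times the highest Japanese Black one. NMRK2 averaged 4303 ± 273 in Japanese Black and 7402 ± 1393 in Holstein (SD, n = 3 each). Differences between breeds are given as the mean of log2(signal + 16) in Japanese Black minus that in Holstein. For NMRK2 the difference was -0.77, a 1.70-fold lower level in Japanese Black. The Japanese Black animals were close to each other, with the highest 1.12 times the lowest, while the Holstein animals spanned 1.42-fold. Holstein 3 was the highest, and without it the log2 difference was -0.62.

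Other values also varied between the arrays, and their part in the NMRK2 difference was not tested. The ratio of the 3′ to the 5′ control probe set of actin, a sign of RNA integrity and labelling, was 1.11, 1.14 and 1.13 in Japanese Black and 1.07, 1.05 and 1.003 in Holstein. Like NMRK2, this ratio separated the breeds, and Holstein 3 lay at the far end of both. The bacterial hybridisation controls BioB averaged 273, 283 and 329 in Japanese Black and 319, 320 and 494 in Holstein, with Holstein 3 far above the rest. The breeds overlapped there, as Japanese Black 3 lay above Holstein 1 and 2. The mean log2 level of the muscle fibre markers, set to 0 over all arrays, was -0.07, -0.07 and 0.01 in Japanese Black and 0.03, 0.03 and 0.06 in Holstein. Measured against that level in the same array, the NMRK2 difference was -0.68, an alternative chosen after seeing the data. That level was nearly flat. It includes very bright markers such as TNNI2 and ACTA1, whose log2 SD between animals of a breed was 0.04 and 0.03. The median over all probe sets tested was 0.23. Whether signals this bright can still register a difference was not tested, which limits this alternative. Some single fibre markers were not flat. ACTN2, an actinin of the Z-disc, read 5975, 6178 and 6378 in Japanese Black, against 8761, 7978 and 10116 in Holstein. Like NMRK2 it did not overlap between the breeds and was highest in Holstein 3, with a log2 difference of -0.53 (SE 0.11, limma adjusted p 0.237). CKM, the muscle creatine kinase, did not overlap either, with a difference of -0.18 (SE 0.09). DES had -0.27 (SE 0.16), with overlap. Of the 9 fibre markers, 4 were higher and 5 lower in Japanese Black. ACTA1, the skeletal muscle actin, did not overlap either but lay the other way, higher in Japanese Black by 0.09 (SE 0.08). ACTN2, CKM, DES and ACTA1 were named after their values were seen. After quantile normalization between arrays the NMRK2 difference was -0.73.

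NMRK2 was selected on its difference, so its place among bright probe sets was set by that choice and is only described. Of 747 tested probe sets with a mean signal of at least 2000, 13 besides NMRK2 had a log2 difference as low or lower. In 7 of these 13, from 6 genes, the breeds did not overlap either. These genes were named after their values were seen. They were RRAD (-1.23), a small GTPase of muscle; the slow myosin light chain MYL3 (-1.29); the calcium-binding protein S100A2 (-1.31); the calcineurin regulator RCAN1 (-1.08); the myogenic transcription factor MYF6 (-0.77); and MUSTN1 (-1.15 and -0.94 at its bright probe sets), a small nuclear protein of muscle and bone. They come from the same contrast as NMRK2 and so lend it no support.

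NAMPT, which makes nicotinamide mononucleotide from nicotinamide, varied from animal to animal far more than NMRK2. Its brighter probe set read 1573, 5237 and 1858 in Japanese Black 1, 2 and 3, against 1836, 2746 and 1000.2 in Holstein 1, 2 and 3. The dimmer probe set read 114, 410 and 231 in Japanese Black, against 112, 250.3 and 75.1 in Holstein. At both probe sets Japanese Black 2 was the highest of all animals, Holstein 2 the highest Holstein animal and Holstein 3 the lowest of all, and the breeds overlapped.

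The log2 difference of NAMPT was 0.53 (SE 0.47, 95% interval -0.54 to 1.60) at the brighter probe set and 0.71 (SE 0.47, -0.36 to 1.79) at the dimmer one. Neither passed limma's test across all probe sets, with adjusted p of 0.643 and 0.536. The differences depended on single animals. They were -0.006 and 0.30 without Japanese Black 2 and 0.14 and 0.37 without Holstein 3, but 0.86 and 1.15 without Japanese Black 1 and 0.87 and 1.15 without Holstein 2. The highest signal over the 6 animals was 5.24 times the lowest at one probe set and 5.46 times at the other. The SD between animals of a breed was 0.84 and 0.82 on the log2 scale, larger than in 98.9% and 98.8% of the 18012 probe sets tested. For NMRK2 it was 0.20, larger than in 39.0%, and the median over all probe sets tested was 0.23.

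**Figure D1:**
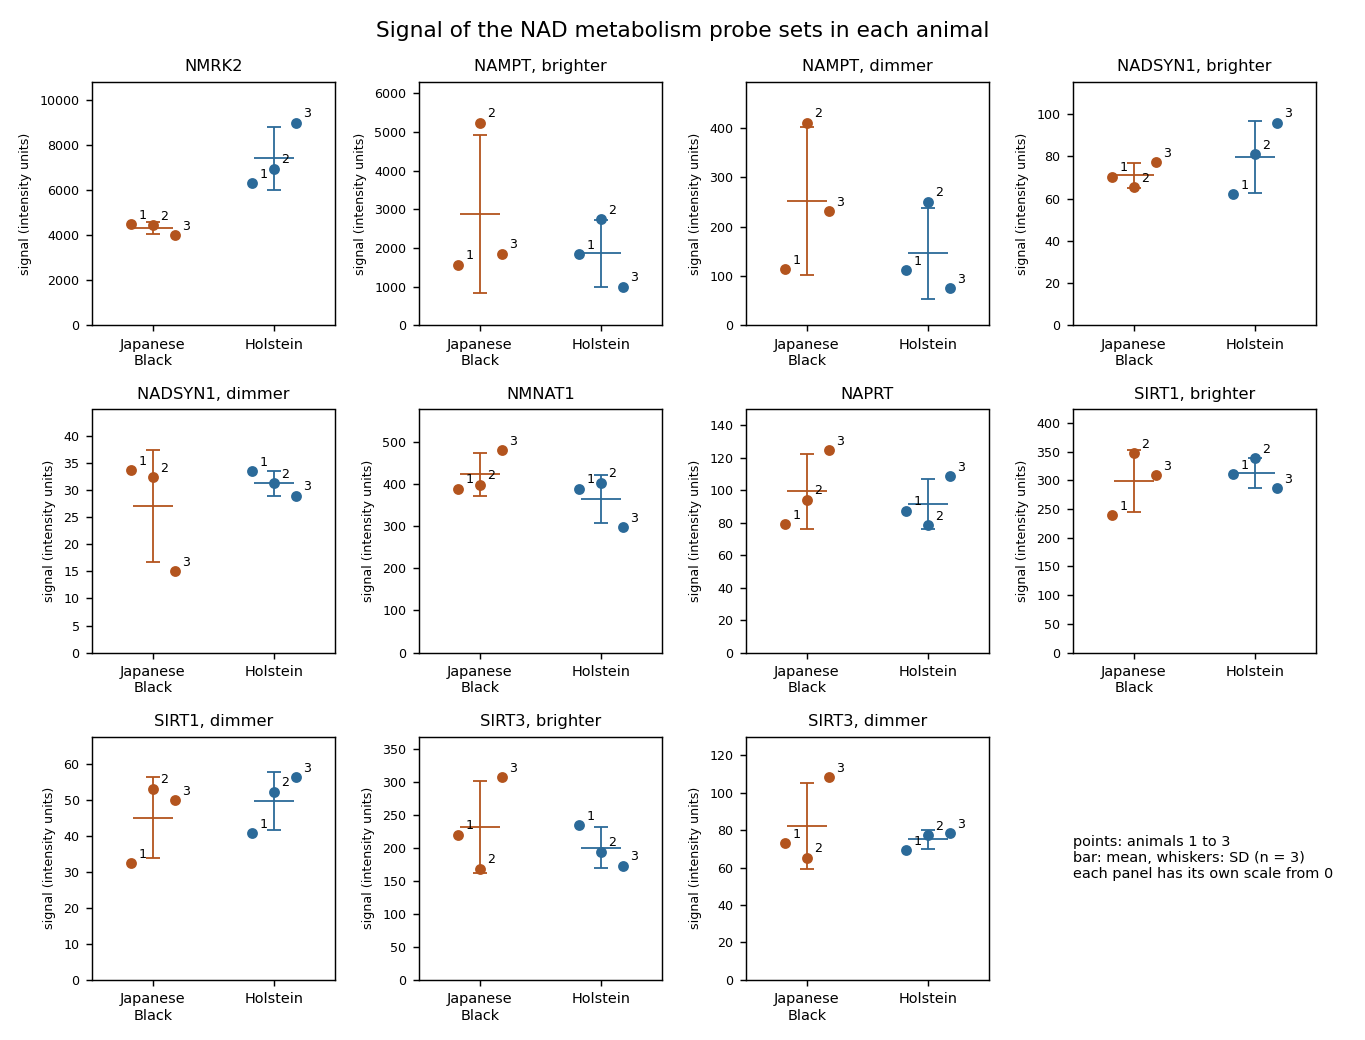
Signal in intensity units (vertical axes, each from 0 and on its own scale) of the 11 probe sets of NAD metabolism genes in the 3 Japanese Black and the 3 Holstein steers. Points are animals, numbered 1 to 3; horizontal bars are means and whiskers SD (n = 3). NMRK2 is the only panel in which the breeds do not overlap, and both NAMPT panels show Japanese Black 2 on top and Holstein 3 at the bottom.

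Adipocytes and leukocytes are also known to express NAMPT, so the marker levels of other cell types are set beside it, as the mean log2 of each list minus its mean over all arrays. Adipocyte markers stood at -0.66, -0.34 and 1.37 in Japanese Black 1, 2 and 3, and at 0.01, 0.76 and -1.13 in Holstein 1, 2 and 3. Holstein 2 was the highest Holstein animal and Holstein 3 the lowest of all for both NAMPT and these markers, while the highest animal was Japanese Black 2 for NAMPT and Japanese Black 3 for the markers. Japanese Black 2, the animal with the highest NAMPT, also had low levels of leukocyte and macrophage markers (-0.28), fibroblast markers (-0.45) and endothelial markers (-0.37). Holstein 3 had leukocyte, fibroblast and endothelial levels of 0.20, -0.05 and 0.20. The part of other cell types in the NAMPT values was not tested. None of the 6 adipocyte, 7 leukocyte, 8 fibroblast or 7 endothelial markers was listed at 0 in any array.

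**Figure D2:**
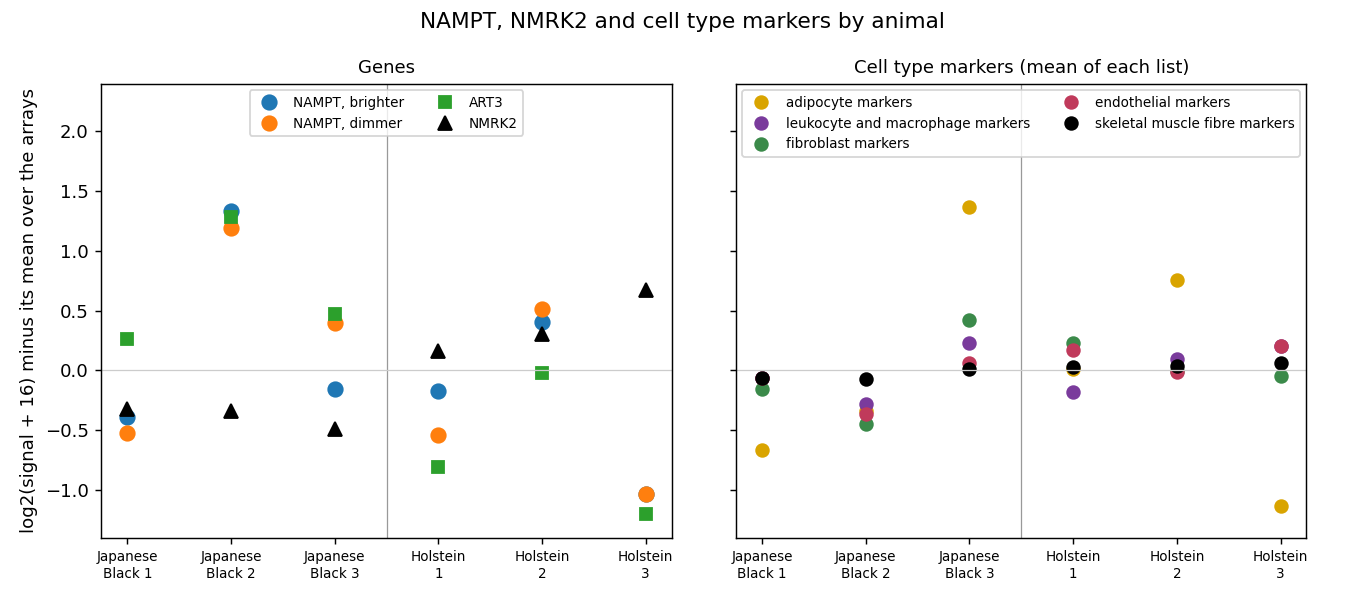
Level by animal, as log2(signal + 16) minus its mean over the 6 arrays (vertical axis), for the NAMPT probe sets, ART3 and NMRK2 on the left and for the means of 5 marker lists on the right; each point is 1 animal (horizontal axis, Japanese Black left of the line). NAMPT and ART3 are highest in Japanese Black 2 and lowest in Holstein 3, whereas the adipocyte markers are highest in Japanese Black 3 (1.37).

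NMNAT1, the nuclear enzyme that joins nicotinamide mononucleotide to the adenylyl group and so completes NAD, differed little between breeds. It read 389, 398 and 480.2 in Japanese Black, against 389, 403 and 298 in Holstein. Japanese Black 3 was the highest and Holstein 3 the lowest, and the other 4 animals lay together between 389 and 403. Its log2 difference was 0.22 (SE 0.18, interval -0.19 to 0.62, limma adjusted p 0.620). It was 0.12 without Japanese Black 3 and 0.084 without Holstein 3.

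The nicotinic acid route was measured through its first and its last enzyme. NAPRT, which converts nicotinic acid to its mononucleotide, read 78.9, 94.0 and 125 in Japanese Black, against 87.2, 78.4 and 109 in Holstein. The breeds overlapped, with a log2 difference of 0.09 (SE 0.20, interval -0.36 to 0.54), which was -0.062 without Japanese Black 3. NADSYN1, the synthetase that turns the deamidated precursor into NAD, read 70.3, 65.4 and 77.3 in Japanese Black at its brighter probe set, against 62.0, 80.9 and 95.8 in Holstein. Here the Holstein animals spread more widely and enclosed the Japanese Black animals. Its dimmer probe set read 33.7, 32.3 and 15.1 in Japanese Black, against 33.4, 31.3 and 28.9 in Holstein, so that Japanese Black 3 alone was low. NADSYN1 had log2 differences of -0.12 (SE 0.18, interval -0.53 to 0.29) and -0.16 (SE 0.20, interval -0.63 to 0.30). The first was -0.0009 without Holstein 3, -0.075 without Japanese Black 2 and -0.26 without Holstein 1. The second was 0.054 without Japanese Black 3, -0.28 without Japanese Black 1 and -0.26 without Japanese Black 2.

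The sirtuins SIRT1 and SIRT3 remove acyl groups from proteins at the expense of NAD, SIRT1 mainly in the nucleus and SIRT3 in mitochondria. SIRT1 read 239.6, 347 and 309 in Japanese Black at its brighter probe set, against 311, 339 and 286 in Holstein. Its dimmer probe set read 32.3, 53.0 and 49.8 in Japanese Black, against 40.7, 52.2 and 56.2 in Holstein. Japanese Black 1 was the lowest animal at both, and the breeds overlapped. The log2 differences of SIRT1 were -0.07 (SE 0.18, interval -0.48 to 0.34) and -0.12 (SE 0.19, interval -0.55 to 0.32), and without Japanese Black 1 they were 0.069 and 0.044.

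SIRT3 read 220.1, 168 and 307 in Japanese Black at its brighter probe set, against 234, 194 and 173 in Holstein. Its dimmer probe set read 73.0, 65.4 and 108 in Japanese Black, against 69.4, 77.4 and 78.4 in Holstein. Japanese Black 3 was the highest and Japanese Black 2 the lowest animal at both, so that all Holstein animals lay between animals of the other breed. The log2 differences of SIRT3 were 0.17 (SE 0.23, interval -0.35 to 0.69) and 0.09 (SE 0.19, interval -0.35 to 0.53). Without Japanese Black 3 they were -0.045 and -0.096. Japanese Black 3 was thus the highest animal at NMNAT1, NAPRT and both SIRT3 probe sets, and it stayed highest at NMNAT1 and SIRT3 after quantile normalization, when NAPRT stood at a log2 level of 6.99 in both Japanese Black 3 and Holstein 3.

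In the fit across all probe sets, 0 of the 10 probe sets of members other than NMRK2 passed an adjusted p of 0.05 with limma, where 0.0167% of all 18012 probe sets tested passed. None reached an unadjusted p of 0.05 either, against 12.6% of all. With unmoderated variances 0 passed, but 0 of all 18012 probe sets passed there, so that count says nothing about the members. The breeds overlapped at all 10, while they did not overlap at 19.8% of all probe sets tested. All 11 member probe sets were bright enough to be tested. The 95% intervals reach from -0.63 to 0.69 for members other than NMRK2 and NAMPT, so the breeds may differ at these genes by amounts that 3 animals per breed leave unresolved. The pairs of probe sets of NAMPT, NADSYN1, SIRT1 and SIRT3 had the same sign within each gene.

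**Figure D3:**
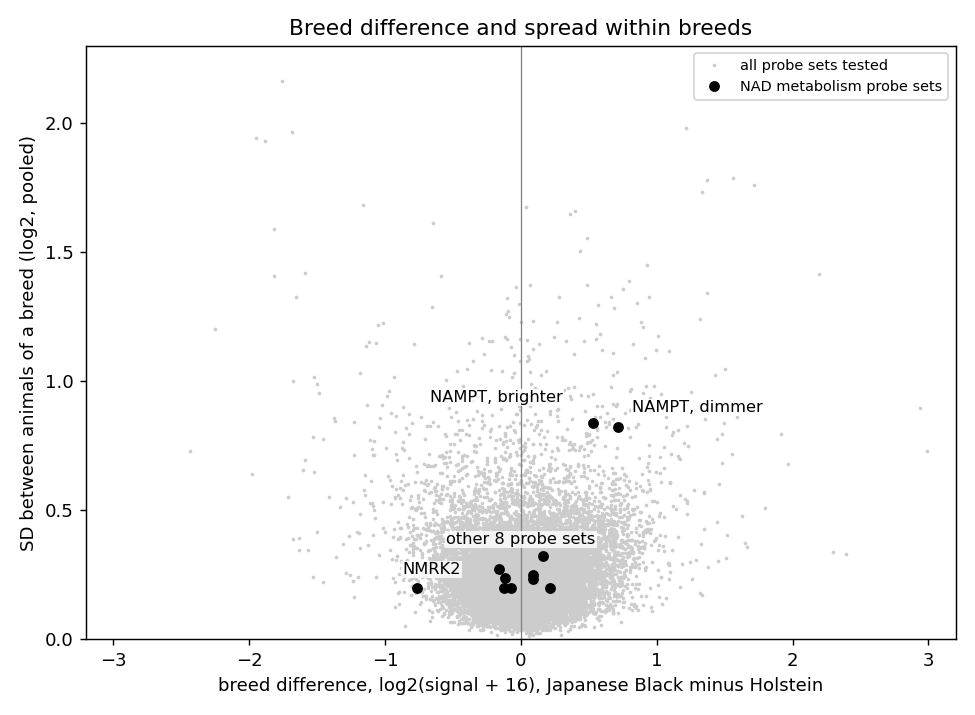
Breed difference in log2(signal + 16), Japanese Black minus Holstein (horizontal axis), against the pooled SD between animals of a breed (vertical axis, log2). Grey points are the 18012 probe sets tested, of which 2 lie outside the axes, and black points are the 11 probe sets of NAD metabolism genes; NMRK2 combines a difference of -0.77 with an SD of 0.20, and NAMPT lies at SDs of 0.84 and 0.82.

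The wider setting of NAD metabolism was described with 5 gene lists, each gene by its probe set of highest mean. Of 93 genes listed, 60 were annotated on the array and 55 were bright enough to be tested. In Japanese Black 21 of them were higher and 34 lower. Their median log2 difference was -0.09, against -0.009 over all 8050 genes. With limma 0 passed the adjusted threshold, where 0.0248% of all genes did. With unmoderated variances 0 passed, as was the case for all probe sets tested. An unadjusted p under 0.05 was reached by 4 of the 55, 3 higher and 1 lower, against 11.3% of all genes. The breeds did not overlap for 9 of the 55, against 19.2% of all genes. In 3 of these the Japanese Black animals were above, against 10.2% of all genes, and in 6 below, against 8.96%.

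Salvage and uptake had 8 tested genes, 3 higher and 5 lower, with a median of -0.20 and 0 passing. PNP, a purine nucleoside phosphorylase that also splits nicotinamide riboside, read 1923, 1713 and 2022 in Japanese Black, against 2426, 2505 and 3113 in Holstein. As for NMRK2, the breeds did not overlap at PNP and Holstein 3 was the highest. PNP had a log2 difference of -0.50 (SE 0.14), and limma's adjusted p was 0.313. NUDT13, of the Nudix hydrolase family, had -0.40 (SE 0.20), and SLC25A51, the mitochondrial NAD carrier, had 0.27 (SE 0.16), both with overlapping breeds. The other kinase of the riboside route, NMRK1, was not annotated with a probe set of its own.

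Of the 8 annotated genes of the route from tryptophan, 4 were dim: TDO2, KMO, KYNU and ACMSD read between 0 and 14.5 in all animals, under the brightness needed for testing. KYAT3 and AADAT, aminotransferases that act on kynurenine, averaged 373 ± 78.3 and 159 ± 22.4 in Japanese Black and 346 ± 63.2 and 172 ± 19.2 in Holstein (SD, n = 3 each). Of the 4 tested genes 2 were higher and 2 lower, with a median of -0.003 and 0 passing. IDO1, which opens the route outside the liver, had a log2 difference of -0.39 (SE 0.31), AADAT -0.11 (SE 0.17) and KYAT3 0.10 (SE 0.21). QPRT, which feeds the route into NAD synthesis, read 43.5, 38.7 and 182 in Japanese Black, against 102, 62.6 and 28.9 in Holstein, highest in Japanese Black 3 and lowest in Holstein 3. The adipocyte markers were also highest in Japanese Black 3 and lowest in Holstein 3, and their part was not tested.

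Among NAD-consuming enzymes and related genes, 5 were higher and 9 lower, with a median of -0.07 and 0 passing. ART3, of the ADP-ribosyltransferase family, read 1070.0, 2195 and 1244 in Japanese Black, against 503, 875 and 379 in Holstein. All Japanese Black animals were above all Holstein animals, and within each breed the animals stood in the same order as for NAMPT. ART3 had a log2 difference of 1.35 (SE 0.34), and limma's adjusted p was 0.287. Another ART3 probe set gave 1.27 without overlap, and the dimmest one 0.58 with overlap. PARG, which removes poly(ADP-ribose), had 0.47 (SE 0.21) and MACROD1, a mitochondrial ADP-ribose hydrolase, -0.18 (SE 0.10), both without overlap, although a dimmer MACROD1 probe set with the same difference of -0.18 overlapped.

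Genes of NADP synthesis and of the shuttles that move reducing equivalents counted 8 higher and 10 lower, with a median of -0.04 and 0 passing. ME1, the cytosolic malic enzyme, had a log2 difference of 0.51 (SE 0.21) without overlap between breeds, but its dimmer probe set gave -0.16. LDHB, the heart-type lactate dehydrogenase subunit, had 0.47 (SE 0.20) and the mitochondrial malic enzyme ME2 -0.49 (SE 0.24), both with overlap.

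NMRK2 is also known as a muscle protein that binds integrin, and 11 integrin, laminin and adhesion genes were tested for that reason. Of these 3 were higher and 8 lower, with a median of -0.12 and 0 passing. LAMC1, a laminin chain of the fibre's basement membrane, had -0.22 (SE 0.14) without overlap at its brightest probe set, while its other probe sets ranged between -0.21 and 0.25 with overlap. LAMB1 had -0.32 (SE 0.21) and ITGB1, the integrin subunit, 0.26 (SE 0.17). ITGA7, the laminin receptor subunit of muscle, had -0.12 (SE 0.23).

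**Figure D4:**
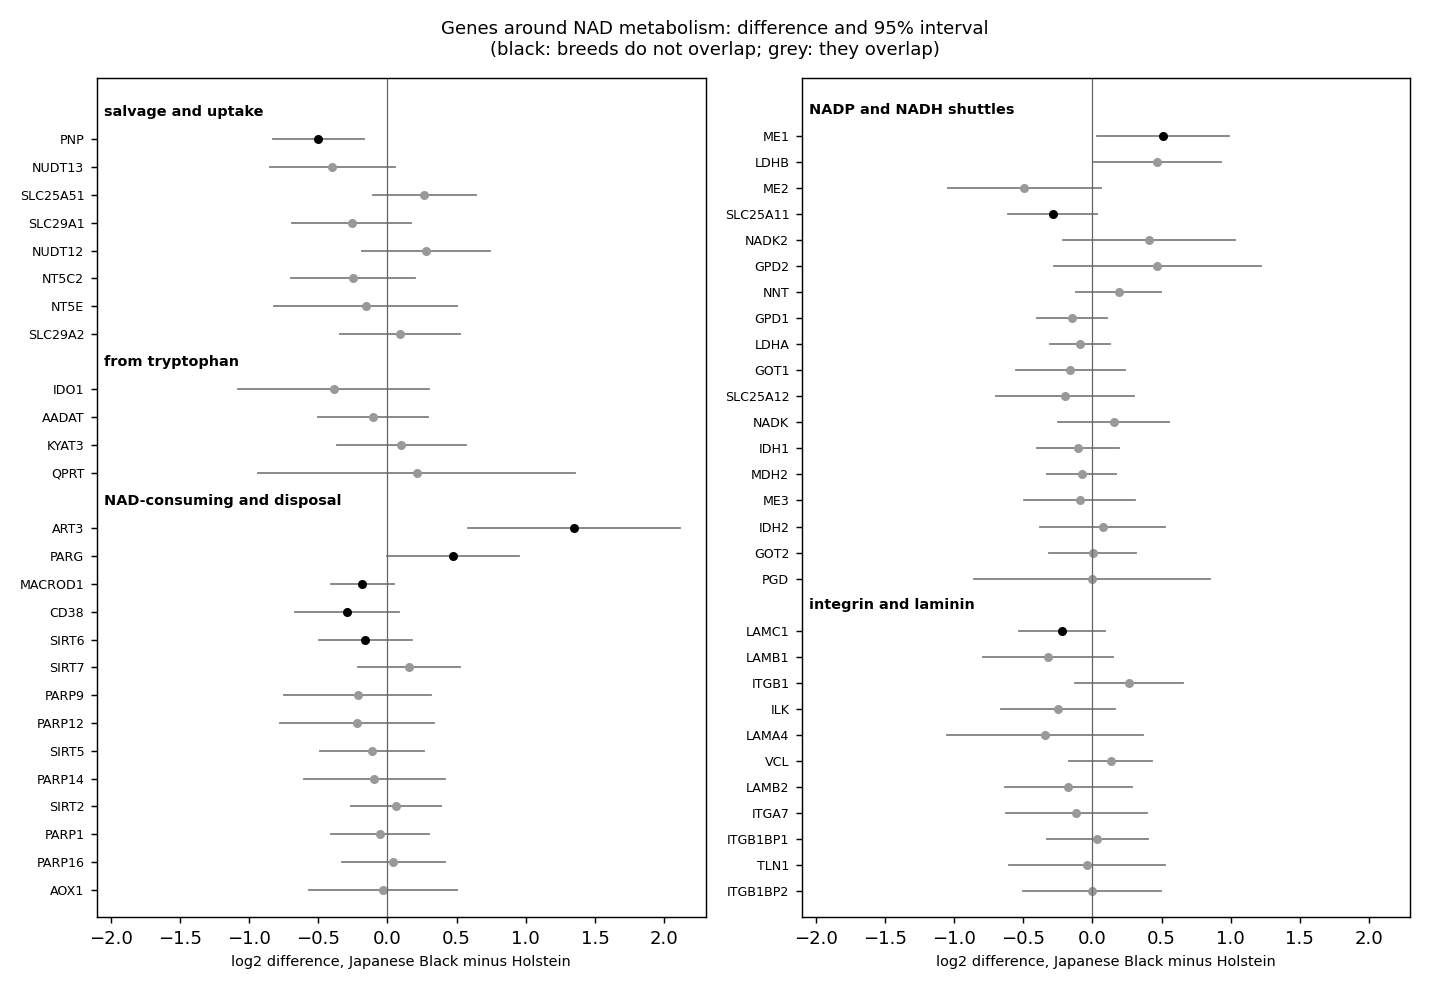
Log2 difference, Japanese Black minus Holstein (horizontal axes), with limma's 95% interval for the 55 tested genes of the 5 lists, in order of p within a list. Black points mark genes whose breeds do not overlap; ART3 at 1.35 and PNP at -0.50 stand at the head of their lists, and 0 genes passed the adjusted threshold.

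The genes whose profile over the 6 arrays was most like that of NMRK2 were taken by the root mean square distance between profiles, each on the log2 scale minus its own mean. The 6 nearest were FAM118A (distance 0.08), CD28 (0.09), TSPAN4 (0.10), PNCK (0.10), ACTN1 (0.11) and CSN3 (0.11). Their probe sets were far dimmer than that of NMRK2. FAM118A, for example, read 46.9, 45.6 and 43.4 in Japanese Black, against 75.2, 71.7 and 99.7 in Holstein. It was picked for its likeness to NMRK2, so the shared split by breed and top place of Holstein 3 are no separate result. A brighter ACTN1 probe set had a log2 difference of -0.15 with overlap, against -0.79 at the probe set named here, and another probe set of FAM118A had -0.21, against -0.67. A second TSPAN4 probe set gave -0.63 without overlap. Among the NAD members the nearest to NMRK2 was the brighter NADSYN1 probe set, at a distance of 0.34, and the farthest was the dimmer NAMPT probe set, at 1.05. This distance also depends on how much a probe set varies. The NADSYN1 probe set spanned 0.52 over the arrays on the log2 scale and the NAMPT one 2.23, and the breeds overlapped at both.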

How the data were processed

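The authors deposited a linear intensity for each of 24128 probe sets on each array. Biotin-labelled cRNA was hybridised to Affymetrix arrays, per the labels' protocols. GCOS 1.1.1 and Affymetrix Expression Console 1.1 are named, per the submitters' processing notes; how probes were summarised, and any scaling target, is not given in the sources used here. Values were not rescaled here.

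After removal of 112 control probe sets, 16 was added to each value, log2 was taken, and the dimmest 25% were left out, leaving 18012. Breeds were compared unpaired with limma 3.58.1 in R 4.3.3 (lmFit, eBayes with intensity trend, two-sided, Benjamini-Hochberg over all probe sets tested, threshold 0.05; 4.91 prior degrees of freedom). The number of arrays limits the precision. The series' design text names a paired test, but the labels pair no animals. Gene symbols came from the platform annotation: 13292 probe sets had 1 symbol, 86 several and 10638 none; 13263 gene identifiers matched RefSeq, with 0 symbols changed. No coordinates are given because the table names no genome build, and no sequences are shown.

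The members and gene lists were chosen with earlier results of these data known. The 3 genes of smallest p per list and the 6 profiles nearest to NMRK2 were named. QPRT, ITGA7, ACTN2, CKM, DES, ACTA1 and the bright genes beside NMRK2 were chosen after their values were seen. In a simulation of the breed comparison (18012 probe sets, 5 runs, 200 changed in each), 1.19% of changes of 0.5, 39.4% of changes of 1 and 87.6% of changes of 2 on the log2 scale were called. The breed comparison was repeated with offsets of 1 and 64, without the brightness filter or with the dimmest 50% removed, with quantile normalization or centring on medians, without the intensity trend, without moderated variances, with array weights, and without each array in turn. Python 3.11.15 with matplotlib 3.10.9 drew the figures.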

Additional observations from a re-analysis of the deposited data

How the results depend on the processing

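The NMRK2 difference lay between -0.87 and -0.62 over 15 other settings and was -0.68 against the muscle fibre markers, within 1 SD of -0.77 in each. Of the other members and of the wider lists 0 passed in any of the 15. The count over all probe sets, 3, was 0 with an offset of 1, with the dimmest 50% left out and with the methods' t-test run unpaired, and 10 with array weights; leaving out 1 animal gave between 0 and 15. The sign turned for some members, NAMPT among them, and the cause was not tested. Leaving out 1 animal gave between -0.006 (without Japanese Black 2) and 0.87 for the brighter NAMPT probe set and between -0.062 (without Japanese Black 3) and 0.22 for NAPRT. For the brighter and dimmer SIRT1 probe sets the ranges were -0.18 to 0.069 and -0.22 to 0.044, positive without Japanese Black 1. For the brighter and dimmer SIRT3 probe sets they were -0.045 to 0.36 and -0.096 to 0.21, negative without Japanese Black 3, and the dimmer NADSYN1 probe set ranged from -0.28 to 0.054, positive without Japanese Black 3. With array weights the brighter SIRT3 probe set had -0.010. With the dimmest 50% left out, the dimmer NADSYN1 and SIRT1 probe sets were not tested. No paired analysis was possible because no label pairs the animals. With 3 arrays per breed, changes as small as those of most members are rarely called.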

Other observations

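The profile of NAMPT over the animals was also compared with all named genes, a comparison chosen after its values were seen. The nearest by the same distance were SORL1 (0.24), CHAC2 (0.27), RPS6KA3 (0.28), DBT (0.303), REV3L (0.32) and MARCHF3 (0.32). The 6 genes nearest to NMRK2 had distances of 0.08 to 0.11. The distance is not scaled to spread, so these values cannot be compared as likeness. The SD between animals of a breed was 0.84 for the brighter NAMPT probe set and 0.20 for NMRK2. RPS6KA3, a ribosomal S6 kinase, read 135, 585 and 249.7 in Japanese Black, against 124, 286 and 100.3 in Holstein. DBT, a subunit of the mitochondrial complex that breaks down branched-chain amino acids, read 251, 506 and 319 in Japanese Black, against 259, 300.5 and 141 in Holstein. In both, as in NAMPT, Japanese Black 2 was the highest animal, Holstein 2 the highest Holstein animal and Holstein 3 the lowest of all. Both genes were picked for their likeness to NAMPT, so this shared order is no separate result. The dimmer NAMPT probe set lay at a distance of 0.29 from the brighter one, so 3 other genes were nearer to it than its own second probe set.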
